A study of Macaca fascicularis with 20 samples.

Results

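Double-low natural killer (NK) cells, sorted as CD27lo CD11blo, were compared with CD27 single-positive NK cells, sorted as CD27+ CD11blo, from the spleen of cynomolgus macaques (Macaca fascicularis). The arrays were chosen by the sorted subset in their titles, 4 for the double-low cells and 4 for the CD27 single-positive cells, which makes 8 of the 20 arrays of the series. The other 12 arrays held 5 CD11b single-positive (CD27lo CD11b+), 5 double-positive (CD27+ CD11b+) and 2 B cell samples. Both subsets compared were NKG2A+ CD8a+ cells of a live gate that was CD45+ and lacked CD3, CD14, CD20 and HLA-DR, so the 2 groups differed in the sort only by surface CD27. The comparison asks which transcripts go with CD27 among NK cells low in CD11b.

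CD27 belongs to the TNF receptor family, a group of costimulatory and death receptors. Its ligand is CD70, and the receptor signals through TRAF adaptors to the NF-kB pathway. In mice, CD27 and CD11b order NK cells from immature to mature, and in humans CD27 is found mainly on the less mature NK cells. NK cells kill through granules loaded with perforin and granzymes, and are switched on and off by a balance of activating and inhibitory receptors. Roles of single genes below are those known from human or mouse.

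All samples were unstimulated and came from frozen spleen cells that were thawed before sorting. Replicate 1 of both subsets came from male animals aged 4 years from Cambodia, and replicate 2 from males of unstated age from Vietnam. Replicate 3 came from males from Vietnam, aged 9 years for the double-low cells and 10 years for the CD27 single-positive cells, and replicate 4 came from females aged 18 years from Singapore. The labels give replicate 3 of the 4 NK subsets ages of 9, 10, 11 and 12 years in the order of listing, and it is not known here whether these are true ages. They call the replicates biological but do not say whether samples with the same number came from 1 animal. From each sample 50 ng of total RNA went into an isothermal linear amplification, and 400 ng of amplified cDNA received the Cy3 dye for a 1-colour Agilent array. Replicates 1 and 2 of both subsets lay on 1 slide and replicates 3 and 4 of both on another.

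Levels are log2 of the processed signal minus the 75th percentile of the same array, so that 0 is the level of that percentile, and differences are double-low minus CD27 single-positive on this log2 scale, with limma standard errors. A total of 12192 genes with a matched probe were tested. The 75th percentile itself stood at 818, 1060.6, 1395.9 and 199.6 intensity units on the 4 double-low arrays, and at 1334.8, 1313.5, 1438.8 and 817.9 on the CD27 single-positive arrays. The double-low array was the dimmer one at every replicate number, and double-low replicate 4 was the dimmest of the 8. The share of probes well above background was 81.0% to 96.0% on the double-low arrays and 83.3% to 94.8% on the CD27 single-positive arrays. Fewer transcripts per cell and fewer cells that express a gene cannot be told apart in such bulk samples.

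The CD27 transcript checks the sort. Its level was 2.73, 2.31, 3.15 and 4.88 in double-low replicates 1 to 4, against 4.87, 3.66, 4.07 and 4.68 in CD27 single-positive replicates 1 to 4. The first 3 double-low arrays lay below every CD27 single-positive array, while double-low replicate 4 had the highest CD27 level of all 8 and so went against its label at the transcript level. The difference was -1.05 ± 0.46 (SE, n = 4 each), with an adjusted p of 0.374 in limma and a two-sided exact permutation p of 0.171, where 0.0286 is the smallest these arrays allow. Without the library labelled double-low replicate 4 the difference was -1.59, with an exact permutation p of 0.0571. Within the first slide it was -1.75 and within the second -0.36. All results below are given with that library. List medians, and genes with an unadjusted p under 0.05, are also given without it where its absence moves them by more than 1.5 times. Values of other single genes are from all 8 arrays, and leaving out 1 array moves some of them by more than that.

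Of 8 NK markers measured, 6 were higher on all 8 arrays than on both B cell arrays of the series. The other 2 were NCR1 (NKp46), at -6.07 to 0.99 in double-low arrays, -1.79 to -0.39 in CD27 single-positive arrays and -2.52 to -1.85 in B cells, and TBX21 (T-bet), at 1.34 to 2.29, 0.36 to 3.84 and 0.52 to 0.80 in the same order. GZMB, granzyme B, had levels of 4.01 to 6.43 in double-low arrays and 5.11 to 6.18 in CD27 single-positive arrays, against -0.24 to 0.29 in the B cell arrays. TYROBP, the adaptor DAP12, had levels of 3.9 to 5.02 in double-low arrays, 4.12 to 5.38 in CD27 single-positive arrays and 0.84 to 1.39 in B cells. KLRD1, the CD94 chain that pairs with NKG2A, was at 1.37 to 3.59 in double-low and 2.73 to 4.22 in CD27 single-positive arrays, with -3.97 to -3.52 in B cells. Of the 10 genes of the sort and gating markers only CD27, PTPRC (CD45) and CD3D had a matched probe. The mean level of the 14 measured B cell genes was -0.71 in double-low replicate 1 and between -2.46 and -1.90 in the other double-low arrays, against -2.61 to -1.66 in CD27 single-positive arrays and 1.74 to 1.81 in B cells. List medians without double-low replicate 1 are given where they move by more than 1.5 times, and the part of B cell RNA in the results was not tested.

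**Figure D1:**
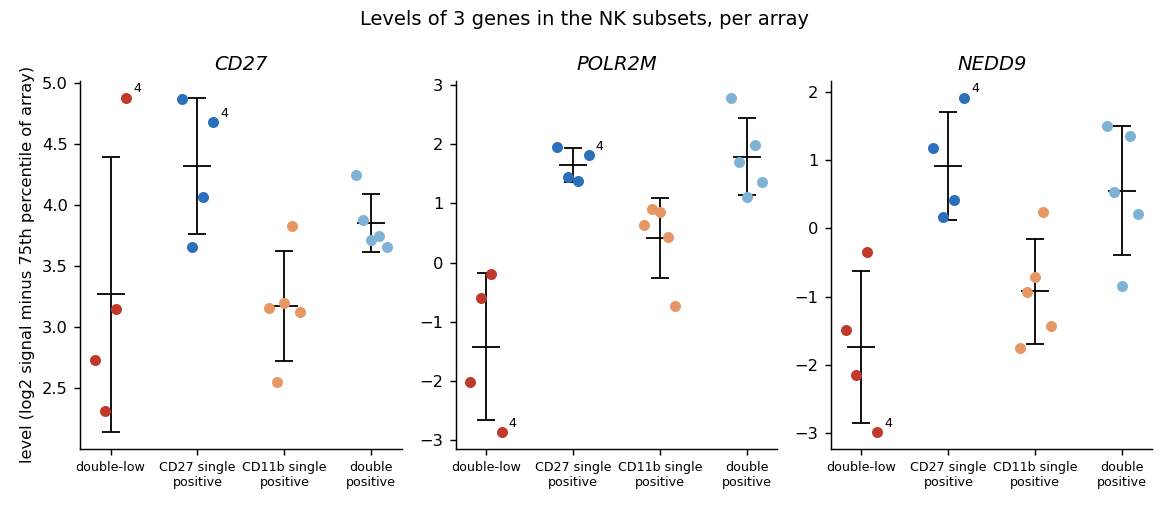
Level of CD27, POLR2M and NEDD9 on every NK array, in log2 units relative to the array's 75th percentile, with 1 point per array and the mean ± SD of each subset as black lines. The 4 double-low arrays lie below the 4 CD27 single-positive arrays for POLR2M and NEDD9, while double-low replicate 4 (marked 4, like CD27 single-positive replicate 4) has the highest CD27 level.

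The genes with the lowest p among those lower in double-low cells were POLR2M, a subunit that associates with RNA polymerase II and regulates its pausing, and NEDD9, a scaffold protein of the Cas family that links integrins to cell migration. Among those higher in double-low cells was CLCC1, a chloride channel-like protein, which was dim on these arrays. No gene passed the adjusted p of 0.05 in either direction in limma, and the lowest adjusted p was 0.249, for POLR2M, with 0.374 or more for every other gene. At an unadjusted p under 0.05 there were 1566 genes, 12.8% of those tested, where 610 would be expected with no difference, and of these 643 (5.27% of those tested) had lower and 923 (7.57%) had higher levels in double-low cells. The unadjusted count was 973 without double-low replicate 4, 780 without CD27 single-positive replicate 1 and 979 without CD27 single-positive replicate 2. The percent called at the adjusted threshold was thus 0, and the values below are descriptions of 8 arrays.

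Groups without overlap were more frequent in the direction of higher double-low levels. All 4 double-low arrays lay below all 4 CD27 single-positive arrays for 456 genes (3.74%), and above them for 2049 genes (16.8%). Without double-low replicate 4 these counts were 698 (5.73%) and 2600 (21.3%). Over all 56918 probes tested, matched to a gene or not, no probe passed in limma (7021 had an unadjusted p under 0.05), and the groups did not overlap for 1931 probes (3.39%) in the direction of lower and 9600 (16.9%) in the direction of higher double-low levels.

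The median difference of all genes was 0.45, and 35.3% of genes had a negative difference. It was 0.22 with quantile normalization, so every difference below is to be read against this shift of all genes. The shift varied with the brightness of a gene. With the genes cut into 5 equal bins from dim to bright, the median difference was 0.80, 0.56, 0.35, 0.20 and 0.05, and the share with a negative difference was 16.2% in the dimmest and 49% in the brightest bin. With quantile normalization the 5 medians were 0.27, 0.27, 0.20, 0.17 and 0.05. The genes with a positive difference were thus drawn more from the dim end, and the genes with a negative one more from the bright end, where 11.8% of genes had an unadjusted p under 0.05 in the direction of lower double-low levels against 0.738% at the dim end. Across genes the SD of levels was 2.23, 2.12, 2.37 and 2.56 in the double-low arrays and 2.66, 2.53, 2.38 and 2.66 in the CD27 single-positive arrays, so that the spread between dim and bright genes was narrower in the double-low array at every replicate number.

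**Figure D2:**
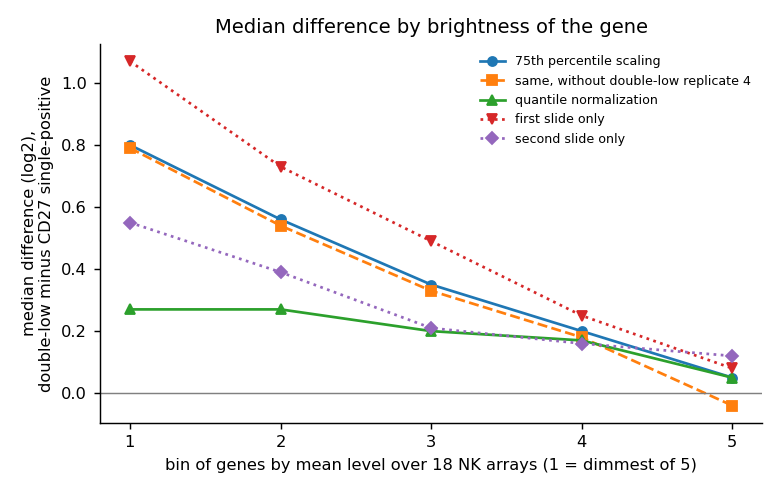
Median difference (log2, double-low minus CD27 single-positive) of the genes in each of 5 equal bins by mean level over the 18 NK arrays, under 2 normalizations, without double-low replicate 4 and within each slide. With 75th percentile scaling the median goes from 0.80 in the dimmest bin to 0.05 in the brightest, and quantile normalization gives 0.27 and 0.05.

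POLR2M had levels of -2.01, -0.60, -0.20 and -2.86 in the double-low arrays, against 1.95, 1.45, 1.37 and 1.81 in the CD27 single-positive arrays. The groups were far apart, with no CD27 single-positive array below 1.37. The difference was -3.06 ± 0.54 (SE), it was -3.01 within the first slide and -3.12 within the second, and it was -2.58 without double-low replicate 4. Of the other 6 measured RNA polymerase II genes, POLR2J had a difference of -2.03, POLR2G of -1.33, POLR2B of -1.11 and POLR2D of -0.92, while POLR2F was at 0.16 and POLR2I at 0.64. POLR2M was the 1 gene of the 7 measured (of 13 listed) whose groups did not overlap, against 3.74% of all genes. It was chosen with earlier results of these data known, so this count is no separate result.

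NEDD9 had levels of -1.49, -2.15, -0.35 and -2.99 in double-low arrays, against 1.18, 0.17, 0.42 and 1.92 in CD27 single-positive arrays. Its groups did not overlap, but the gap between double-low replicate 3 and CD27 single-positive replicate 2 was small. The difference was -2.67 ± 0.62 (SE; limma adjusted p 0.374) and both of its probes gave negative values, -2.67 and -2.57. Of the other Cas family members, BCAR1 (p130Cas) was at 0.68, CASS4 at 0.38 ± 0.56 and EFS at 0.34 ± 1.21, where all genes had a median of 0.45, and EFS was well above background on only 1 array of each subset. Among partners of Cas proteins, the adaptor CRKL had a difference of -1.39, the kinase FYN -1.65, and TLN1 (talin, which couples integrins to actin) -1.37 ± 0.48. CRK was at 0.51 and ZYX (zyxin) at 0.92. In this list NEDD9, CRKL, FYN and TLN1 had separate groups in the direction of lower double-low levels (3.74% of all genes did). ZYX and BCAR3 had them in the direction of higher levels (16.8% of all genes did). NEDD9 was chosen with earlier results of these data known, so its place among the lower genes is no separate result. BCAR3 was well above background on only 2 double-low arrays and 1 CD27 single-positive array. The median of the 15 measured genes of this list was 0.34, with 6 of 15 negative. It was 0.19 without double-low replicate 4, 0.18 without double-low replicate 1 and -0.13 with quantile normalization, and it turned from slide to slide, with 0.44 in the first and -0.59 in the second. The integrin list (12 of 16 measured) had a median of -0.12, which was -0.03 without double-low replicate 4, 0.28 without double-low replicate 1, -0.38 within the first slide and 0.39 within the second. None of its members had separate groups in the direction of lower double-low levels (3.74% of all genes did). ITGA2, ITGA5 and ITGB3 had them in the direction of higher levels (16.8% of all genes did). ITGA2 was well above background on only 2 CD27 single-positive arrays. ITGAD, the integrin alpha D chain, was at -1.69, and the beta chains ITGB1 and ITGB2 were at -0.94 and -0.59. ITGA5, the fibronectin receptor chain, was at 1.02 with separate groups.

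Genes of actin remodelling and migration mostly had lower levels in double-low cells. Of 13 measured (of 27 listed), 10 had a negative difference, 8 had an unadjusted p under 0.05 in that direction (5.27% of all genes did), and the median was -1.12, which is 1.57 below that of all genes. The brightest of the 5 bins, where the median level of this list lay, had a median difference of 0.05, and 11.8% of its genes had an unadjusted p under 0.05 in that direction. WIPF1, which binds the Wiskott-Aldrich syndrome protein, had levels of 0.30, 0.88, 1.68 and -0.26 in double-low arrays and 2.15, 2.48, 2.02 and 2.91 in CD27 single-positive arrays, with a difference of -1.74 ± 0.52 (SE). Its partner WAS was at -2.18, also with separate groups, and ARPC1B, a subunit of the complex that nucleates actin branches, was at -2.61, or -1.60 without double-low replicate 4. RAC2, the haematopoietic Rac GTPase, was at -0.91 with separate groups, and CORO1A, RHOH and FLNA had positive differences of 0.38, 0.16 and 0.82.

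The other genes of lowest p with lower double-low levels had mixed roles, and included genes of the secretory pathway, nucleotide supply and DNA topology. Of the 10 genes taken by lowest p in this direction 9 had separate groups (3.74% of all genes did). A pick by p on the same arrays favours separate groups, so this share is no separate result. SEC61A1, the channel subunit of the translocon of the endoplasmic reticulum, had levels of -3.18, -3.36, -2.89 and -2.91 in double-low arrays, against 0.47, -1.05, -0.02 and -0.10 in CD27 single-positive arrays. The difference was -2.91 ± 0.70 (SE), and the 4 double-low arrays lay within a narrow band well under the others. SPCS1 of the signal peptidase complex lay between -1.06 and 0.25 in double-low arrays and between 1.26 and 3.24 in CD27 single-positive arrays, with a difference of -2.33 ± 0.56. GMPS, which makes GMP, had a difference of -2.25 ± 0.53, the cofactor-binding protein PBXIP1 -1.95 ± 0.47, the polyamine-transporting ATPase ATP13A3 -3.45 ± 0.88, and TOP2B, DNA topoisomerase II beta, -1.90 ± 0.50. The kinase OXSR1, which acts on ion cotransporters, was at -2.29 ± 0.60, and at -1.52 without double-low replicate 4. BTBD1, a BTB domain protein, was at -2.29 ± 0.59, and its groups overlapped, with 2 double-low arrays at -0.22 and -0.61 and the lowest CD27 single-positive array at -0.38.

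The genes of lowest p with higher double-low levels were mostly dim, and 9 of the 10 had separate groups (16.8% of all genes did). Here too the pick by p on the same arrays favours separate groups. IL4I1, a secreted L-amino acid oxidase, was bright: it had levels of 2.17, 1.75, 2.0 and 1.45 in double-low arrays, against 0.92, 0.18, -0.60 and 0.22 in CD27 single-positive arrays. The difference was 1.66 ± 0.45 (SE), and its 2 probes gave 0.73 and 1.66. SLC44A4, a choline transporter-like protein, had levels of 0.30, -0.05, 0.19 and 0.65 in double-low arrays and -1.20, -1.31, -1.03 and -0.84 in CD27 single-positive arrays. The groups of SLC44A4 were tight and apart, with a difference of 1.37 ± 0.39. EPN2, an epsin of clathrin-mediated uptake, was at 1.77 ± 0.50, and MTMR11, a myotubularin-related protein, at 1.87 ± 0.51.

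CLCC1 was not well above background on any CD27 single-positive array, so that its difference is only rough. The lowest signal well above background on each CD27 single-positive array (or the probe's own value where higher) was taken in its place. Against it the mean of all 4 double-low arrays was 2.14-fold higher. Only 3 of 4 double-low arrays were well above background, so the value is not a strict lower bound. The measured means of CLCC1 were -4.40 in double-low and -7.07 in CD27 single-positive arrays. GPR26 (an orphan receptor) at 2.84, CLEC3A (a C-type lectin) at 2.67, the phospholipase LIPI at 2.54 and AGXT2 (a mitochondrial aminotransferase) at 2.68 were well above background on only 1 or 2 of the CD27 single-positive arrays. AGXT2 overlapped, with double-low replicate 2 at -4.24 and CD27 single-positive replicate 1 at -4.16.

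**Figure D3:**
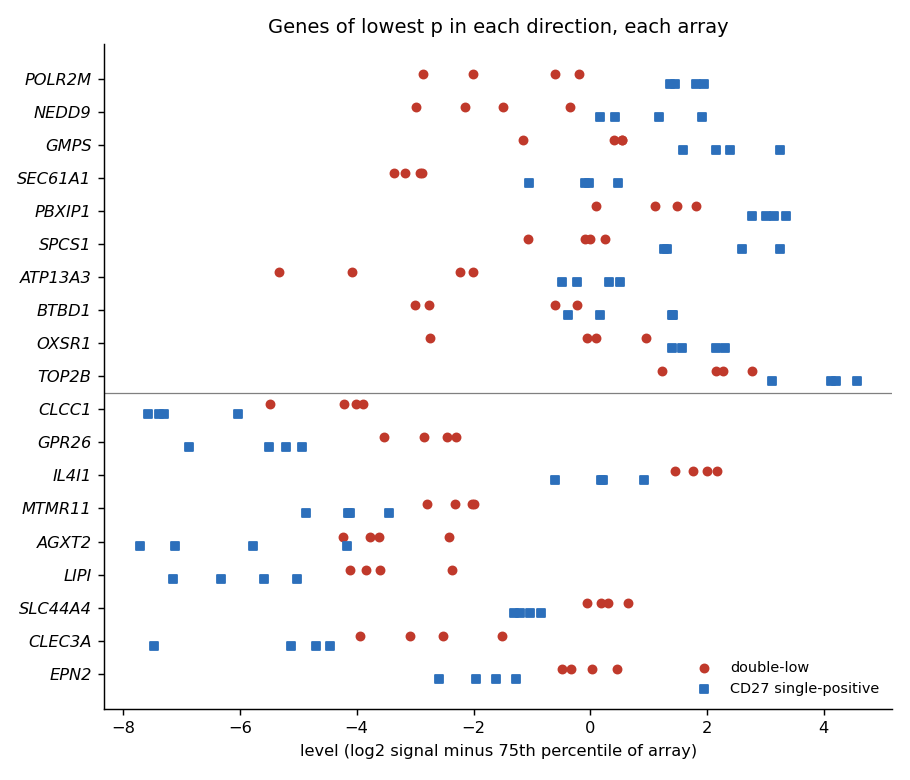
Level (log2, relative to the array's 75th percentile) on each double-low (circles) and CD27 single-positive (squares) array of the genes of lowest p in each direction, lower in double-low cells above the line and higher below it. The groups overlap for BTBD1 above the line and AGXT2 below it, and are apart for the other genes shown.

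Genes of the CD27 pathway other than CD27 itself mostly lay below the median of all genes. Of 11 such genes measured 10 had a difference under 0.45, 5 had a negative one, and the median was 0.0. With quantile normalization the median was -0.22 with 8 negative, without double-low replicate 4 it was -0.17, and it was -0.47 within the first slide and 0.30 within the second. The ligand CD70 was at -0.15, the adaptors TRAF2 and TRAF5 at -0.32 and 0.16, and the kinase MAP3K14 (NIK) at 0.11. Downstream, RELA had a difference of -1.47 ± 0.64 (SE) and NFKB1 of -0.82, while NFKB2, the subunit of the alternative pathway, was at 0.71 with separate groups. In the wider TNF receptor family (14 of 20 measured) the median was 0.36, with 6 of 14 negative. TNFRSF21, a death receptor, had levels of -1.66, -1.86, -1.93 and -0.89 in double-low arrays and -3.03, -3.06, -2.20 and -2.90 in CD27 single-positive arrays, a difference of 1.21 ± 0.46. TNFRSF18 (GITR, a costimulatory receptor) was at 1.09 ± 0.44, TNFRSF12A at 0.98 and CD40 at 0.86, and these 4 of the 14 had separate groups (16.8% of all genes did in this direction), while TNFRSF1B, a receptor for TNF, was at -1.19.

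All 14 measured genes of the cytotoxic granules (of 19 listed) had lower levels in double-low cells, with a median difference of -1.14. That is 1.59 below the median of all genes, or 1.35 below it with quantile normalization, and genes of the brightest bin, where this list lay, had a median of 0.05. The list median was -1.44 within the first slide and -0.92 within the second, where 11 of the 14 genes were negative. Without double-low replicate 1, 13 of the 14 were negative. Their mean level was 1.20, 1.18, 1.94 and 1.38 in double-low replicates 1 to 4, against 2.59, 2.31, 2.82 and 2.75 in CD27 single-positive replicates 1 to 4. No double-low array reached the lowest CD27 single-positive array by this mean. At an unadjusted p under 0.05 there were 5 genes, namely GZMK (-1.67 ± 0.70), PRF1 (-1.06 ± 0.46), GZMH (-1.93), STX11 (-2.31) and NKG7 (-1.52), and none in the other direction, where 5.27% of all genes and 11.8% of the brightest bin were lower by this measure.

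Perforin itself, PRF1, had levels of 1.26, 0.44, 1.30 and 0.90 in double-low arrays and 2.35, 2.39, 2.52 and 0.87 in CD27 single-positive arrays. The groups overlapped through CD27 single-positive replicate 4, which lay with the double-low arrays. GZMK, granzyme K, had levels of 3.33, 1.79, 3.91 and 0.83 in double-low arrays and 4.88, 3.55, 4.64 and 3.48 in CD27 single-positive arrays, and 1 double-low array reached into the other group. Only STX11 (a syntaxin needed for granule release) and CTSC (cathepsin C, which activates granzymes, at -2.05) had separate groups. GZMB, GNLY (granulysin) and SRGN (serglycin) had the smallest differences, -0.34, -0.12 and -0.40.

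Markers of mature effector NK cells were split. Of 14 measured genes (of 19 listed) 7 had a negative difference, and the median was -0.14, or -0.33 without double-low replicate 4 and -0.01 without double-low replicate 1. CCL3, a chemokine, had levels of 3.97, 4.14, 4.61 and 3.50 in double-low arrays and 5.46, 5.78, 4.92 and 4.57 in CD27 single-positive arrays, a difference of -1.13 ± 0.45 (SE) with a slight overlap. PRDM1, the repressor Blimp-1, was at -2.47 ± 1.05, or -1.59 without double-low replicate 4. B3GAT1, the enzyme that makes the CD57 epitope of late NK cells, was higher in every double-low array, at -0.96, -0.78, -0.12 and 0.06 against -1.81, -1.44, -1.33 and -1.80 in CD27 single-positive arrays, a difference of 1.14 ± 0.40. S1PR1, an egress receptor, was at 0.96 with separate groups, and TBX21 (T-bet) was at -0.45.

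The list of immature or CD56bright-like NK genes (12 of 19 measured) had a median of -0.35, with 7 of 12 negative, and it also held GZMK. The median was -0.14 without double-low replicate 4 and -0.15 without double-low replicate 1. CXCR3, a chemokine receptor, had levels of -3.46, -1.56, -1.64 and -2.24 in double-low arrays and -0.18, -1.28, 0.55 and -0.75 in CD27 single-positive arrays, a difference of -1.81 ± 0.83. CD44, the hyaluronan receptor, was at -1.06 ± 0.49 by its brightest probe, all 7 of its probes were negative, and the groups of both genes were apart. KIT, which marks early NK cells in humans, had a positive difference of 1.96, without an unadjusted p under 0.05. The repressor BACH2 was at 1.73 ± 0.77, but at 3.52 within the first slide and -0.06 within the second. It was well above background on only 2 double-low arrays and 1 CD27 single-positive array, so its difference is only rough.

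Activating receptors and their adaptors (11 of 20 measured) had a median of -0.60, with 8 of 11 negative and no unadjusted p under 0.05. The median was 0.08 without double-low replicate 1 and -0.28 without double-low replicate 4, so it rested on those arrays. CRTAM, an adhesion receptor of cytotoxic cells, was at -1.29 ± 0.69 and CD226 (DNAM-1) at 0.77 ± 0.48, and the signalling chains CD247, TYROBP and FCER1G were at -0.61, -0.51 and -0.75. Of inhibitory receptors 8 of 15 were measured, with a median of 0.56 and 3 negative. SIGLEC9, a sialic acid receptor, had levels of 1.31, 1.97, 1.31 and 1.53 in double-low arrays and 0.01, 0.24, 0.38 and -0.04 in CD27 single-positive arrays. Its groups were tight and apart, with a difference of 1.38 ± 0.40, yet the second of its 2 probes gave -0.56. CTLA4 was at 1.32 ± 0.57, CD300A at 0.91 and CD200R1 at 0.54, so that 4 of the 8 had separate groups (16.8% of all genes), while the C-type lectins KLRD1, KLRB1 and KLRG1 were at -0.98, -0.91 and -1.44.

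Kinases and adaptors of receptor signalling lay lower in double-low cells, with 18 of 21 measured genes (of 26 listed) negative and a median of -1.02. VAV3, an exchange factor that acts downstream of activating receptors, had levels of -1.30, -0.62, 0.11 and -1.52 in double-low arrays, against 0.34, 0.56, 1.0 and 1.05 in CD27 single-positive arrays. The groups were apart, and the difference was -1.57 ± 0.56 (SE). The kinase FYN was at -1.65 and PLCG2 (phospholipase C gamma) at -1.70, each with separate groups. The kinase SYK was at -2.58 (-1.38 without double-low replicate 4) and DGKA (diacylglycerol kinase alpha) at -2.61. BTK, at 0.96, had separate groups in the other direction. The mean of the list was between -0.10 and 1.07 in double-low arrays and between 1.38 and 1.64 in CD27 single-positive arrays.

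Transcription factors of NK cells were lower in double-low cells for 17 of 24 measured genes (of 30 listed), with a median of -0.78. EOMES, one of the T-box factors that define NK cells, was at -1.26, ID2 at -1.17 ± 0.55, IRF2 at -2.44 and IRF8 at -1.79 ± 0.75, and these 4 had separate groups (3.74% of all genes did, and 7.18% of the brightest bin, where this list lay). IRF8 had levels of 0.12, -0.23, 0.22 and 0.46 in double-low arrays and 2.30, 2.70, 1.28 and 1.45 in CD27 single-positive arrays. ETS1 was at -0.99 ± 0.40, RUNX3 at -1.15, and IKZF1, ZEB1 and BATF had positive differences of 0.58, 0.37 and 0.62. Tissue residency genes (12 of 17 measured) overlapped with this list and had a median of -0.83. Chemokine and egress receptors (14 of 20 measured), chemokines and cytokines (10 of 19) and cytokine receptors (15 of 24) had medians of 0.45, 0.39 and 0.40. Without double-low replicate 4 these were 0.64, 0.16 and 0.11, against 0.44 for all genes, and the chemokine and egress receptors had 0.80 within the first slide and -0.24 within the second. Among them TGFBR2 was at -1.86 ± 0.81 (-1.16 without double-low replicate 4), IL21R at 1.56 ± 0.82 and CSF2 at 1.08 ± 0.59, and the groups were apart only for CSF2 of these.

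**Figure D4:**
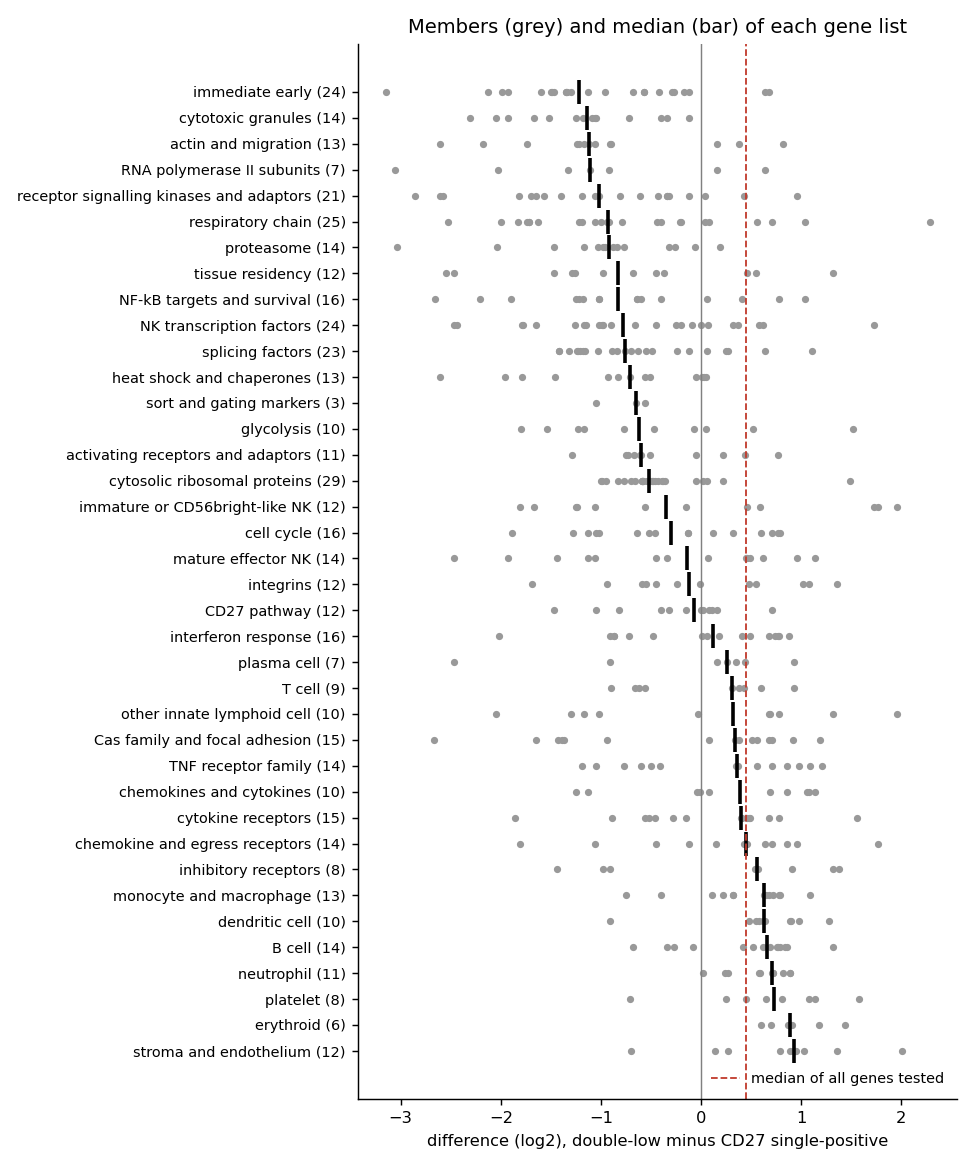
Difference (log2, double-low minus CD27 single-positive) of each measured member (grey) of 38 gene lists, with the list median as a black bar, the number measured in parentheses and the median of all 12192 genes, 0.45, as a dashed line. The lists of immediate early genes (median -1.22), cytotoxic granules (-1.14) and actin (-1.12) lie at the top, and the lists of other cell types, from 0.26 to 0.93, near the bottom.

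Immediate early genes, which are switched on within minutes of activation or handling of cells, had the lowest median of the 38 lists, -1.22, with 22 of 24 measured genes (of 30 listed) negative. The median was -0.55 without double-low replicate 4. ZFP36 (tristetraprolin, an RNA decay factor) had levels of 3.09, 3.52, 3.97 and 3.28 in double-low arrays and 5.18, 4.63, 4.16 and 5.10 in CD27 single-positive arrays, a difference of -1.30 ± 0.42 (SE). DUSP5, a phosphatase of ERK, had levels of 3.39, 3.05, 3.38 and 3.67 in double-low arrays and 4.62, 4.76, 4.03 and 4.61 in CD27 single-positive arrays, a difference of -1.13 ± 0.38. The groups of both genes were apart, as were those of NR4A2, at -1.99. KLF4 and KLF6 were at -3.15 and -1.93 (KLF6 at -1.03 without double-low replicate 4), while FOS, FOSB and JUN stood at -0.27, -0.12 and -0.42 and JUNB at 0.68. The mean of the list was lower in double-low cells at each replicate number, at 1.47, 1.96, 1.26 and 0.25 in double-low replicates 1 to 4 against 2.91, 3.0, 1.64 and 1.48 in CD27 single-positive replicates 1 to 4, but the groups overlapped.

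Survival genes and NF-kB targets (16 of 20 measured) had a median of -0.83, with 12 negative. BCL2A1, an anti-apoptotic NF-kB target, had levels of 0.76, 0.77, 0.90 and -0.20 in double-low arrays and 2.93, 2.17, 1.89 and 2.85 in CD27 single-positive arrays, a difference of -1.90 ± 0.86 with separate groups. BCL2 was at -1.02 and MCL1 at -0.64. Among the pro-apoptotic genes PMAIP1 (NOXA) was at -2.66 ± 1.05, or -0.97 without double-low replicate 4, BBC3 at -2.21, BAX at 0.78 and BAK1 at 1.04.

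Genes of general cell machinery also lay below the median of all genes and below that of their brightness bin, which was 0.20 for proteasome and respiratory chain genes and 0.05 for the lists after them. Of 14 proteasome genes measured (of 31 listed) 13 were negative, with a median of -0.92, and PSMB6 was at -3.04 ± 1.1 and PSMD4 at -2.04 ± 0.94 (-1.25 without double-low replicate 4). Respiratory chain genes (25 of 33 measured) had a median of -0.93 with 19 negative. ATP5F1A, a subunit of ATP synthase, had levels of 0.28, 0.00, 1.23 and -0.40 in double-low arrays and 2.51, 1.74, 1.59 and 2.58 in CD27 single-positive arrays, a difference of -1.83 ± 0.53 with separate groups. NDUFB3 was not well above background on any CD27 single-positive array and was so on 2 of 4 double-low arrays. Its measured means were -4.15 in double-low and -6.44 in CD27 single-positive arrays. Against the lowest signal well above background, the mean of all 4 double-low arrays was 2.46-fold higher. That mean includes arrays not well above background, so the value is not a strict lower bound.

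Splicing factors (23 of 35 measured) had a median of -0.76 (-0.46 without double-low replicate 1), with 18 negative and 7 with separate groups in the direction of lower double-low levels (3.74% of all genes). HNRNPM had levels of 2.69, 2.83, 2.88 and 2.97 in double-low arrays and 4.32, 4.42, 3.51 and 4.03 in CD27 single-positive arrays, a difference of -1.23 ± 0.48. SRSF6 was at -1.03 ± 0.39 and U2AF1 at 1.11. Cytosolic ribosomal protein genes were negative for 25 of 29 measured (of 56 listed), with a median of -0.52. That median was -0.86 without double-low replicate 4 and -0.28 without double-low replicate 1, and no ribosomal gene had separate groups. RPS6 was at -0.99 ± 0.43 and RPL37 at 1.49 ± 0.72. Heat shock and chaperone genes (13 of 23 measured) had a median of -0.71, but -0.39 without double-low replicate 1, -1.37 within the first slide and -0.07 within the second, and HSPH1 was at -1.96 ± 0.84 and PDIA6 at -2.61 ± 1.0. Glycolysis genes (10 of 20 measured) had a median of -0.62 (-0.39 without double-low replicate 1), with HK1 at -1.23 ± 0.67 and ALDOC (aldolase C) at 1.52 ± 0.51.

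Cell cycle genes (16 of 27 measured) had a median of -0.30, which was -0.12 without double-low replicate 4, 0.32 within the first slide and -0.69 within the second. Interferon response genes (16 of 24 measured) had a median of 0.12, or 0.07 without double-low replicate 4 and 0.41 without double-low replicate 1. MKI67, the proliferation marker, was at 0.12, CCND2 (cyclin D2) at -1.13 ± 0.61 (-1.71 without double-low replicate 4 and -0.54 without double-low replicate 1) and E2F1 at 0.79 ± 0.38. E2F1 had levels of 5.11, 5.15, 4.98 and 4.83 in double-low arrays and 4.28, 4.27, 4.31 and 4.04 in CD27 single-positive arrays, apart by a margin larger than the spread within either subset. Among interferon genes OASL was at 0.88 ± 0.45 and XAF1 at 0.78 ± 0.44, while IFI44 was at -2.02.

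Lists of other blood and tissue cells all had positive medians. The medians were 0.93 for stroma and endothelium (12 of 16 measured), 0.89 for erythroid (6 of 12), 0.73 for platelet (8 of 10), 0.71 for neutrophil (11 of 17), 0.66 for B cell (14 of 20), 0.63 for monocyte and macrophage (13 of 18) and for dendritic cell (10 of 13), 0.32 for other innate lymphoid (10 of 13), 0.31 for T cell (9 of 14) and 0.26 for plasma cell genes (7 of 10). For the brightness of these lists, whose median level lay in bin 2 or 3 of the 5, genes in the same bin had a median of 0.56 or 0.35. All 11 neutrophil and all 6 erythroid genes were positive. The median level of both lists lay in bin 3, where 38.4% of genes had a negative difference, against 35.3% of all genes. With quantile normalization 2 neutrophil genes and 1 erythroid gene were negative, and within the second slide 4 neutrophil genes were. The erythroid mean level was between -1.40 and -0.81 in double-low arrays, between -2.32 and -1.77 in CD27 single-positive arrays and between -2.89 and -2.85 in B cells, so the 2 NK subsets did not overlap by it.

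Among single genes of these lists AHSP, the haemoglobin-stabilising protein of red cell precursors, was at 0.91 ± 0.43 (SE) and ITGA2B, the platelet integrin chain, at 0.81 ± 0.36, both with separate groups. DCN (decorin) was at 1.36 ± 0.60 and CDH5 (VE-cadherin) at 0.95 ± 0.50. DCN was well above background on 3 double-low arrays and only 1 CD27 single-positive array. The B cell factor PAX5 had levels of -3.32, -2.99, -3.52 and -2.85 in double-low arrays, against -4.89, -4.20, -3.93 and -4.93 in CD27 single-positive arrays and 0.77 to 0.98 in B cells. The B cell median was 0.20 and the T cell median -0.02 without double-low replicate 1, the T cell median was -0.03 with quantile normalization, and the plasma cell median was 0.41 without double-low replicate 4. None of the measured markers of these lists was below background on all 8 arrays. That outcome was largely set beforehand, because testing required a signal well above background on 4 or more of the NK arrays. It therefore cannot decide whether transcripts of other cells were present. CD3D, whose protein was gated out, had levels of -0.45, 1.01, 2.27 and 0.31 in double-low and -0.11, 0.74, 2.43 and 2.30 in CD27 single-positive arrays. The part of these markers in the differences of NK genes was not tested.

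The same step, CD27lo against CD27+, can be taken among CD11b+ cells, where 5 CD11b single-positive arrays stand against 5 double-positive arrays. These 10 arrays are not among the 8. CD27 differed there by -0.68, POLR2M by -1.37 and NEDD9 by -1.48, each a smaller value than among CD11blo cells. All 10 named genes with lower double-low levels were negative in CD11b+ cells too, where 32.5% of all genes were negative and most were positive. Of the 10 named genes with higher double-low levels 7 were positive there, which is near the share of all genes. The CD11b+ step also had a shift of all genes, with a median of 0.27, from 0.53 in the dimmest to 0.08 in the brightest bin. Signs shared by the steps, and their correlation, are to be read against the shifts of both steps. Of all 12192 genes 76.8% had the same sign in both steps. Among genes with an unadjusted p under 0.05 the share was 81.3% for the 643 with lower and 94.8% for the 923 with higher double-low levels. Of all genes, 32.5% were negative in CD11b+ cells and a larger share were positive. The lower genes came more from the bright end, where the CD11b+ median was nearer to no difference. The share of negative genes at their brightness was not computed and may be above 32.5%, so that figure is not a matched base. The higher genes came more from the dim end, and a share matched to their brightness was not computed either. Over genes, which are not independent replicates, the correlation of the steps was r = 0.50, with and without double-low replicate 4. In the CD11b+ step no gene passed in limma either, with 723 at an unadjusted p under 0.05.

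The difference between the steps was tested as an interaction in the same limma fit. No gene passed (175, or 1.44%, had an unadjusted p under 0.05). On the positive side, SLC44A4 had a difference of 1.37 among CD11blo cells and -0.46 among CD11b+ cells, with an unadjusted p of 0.00229 and an adjusted p of 1 in limma. On the negative side stood ABHD1, a hydrolase family protein (-2.32 and 0.90), POLR2D (-0.92 and 1.75) and NUS1, a subunit of the enzyme that makes dolichol (-3.60 and 0.62). Double-positive replicate 4 was the dimmest array of the series, with its 75th percentile at 180 intensity units. It had the lowest double-positive level of ABHD1, -3.51, and of NUS1, -4.56, but not of POLR2D. The unadjusted p of the interaction in limma was 0.0316 for POLR2M, 0.171 for NEDD9 and 0.546 for CD27. Cytotoxic granule genes had a median of -1.14 in the CD11blo step and -0.11 in the CD11b+ step, where 9 of 14 were negative, and no member passed the interaction test in limma. Ribosomal protein genes had medians of -0.52 and -0.59, and immediate early genes of -1.22 and -0.57. All genes had medians of 0.45 and 0.27 in these steps, and genes of the brightest bin, where these lists lay, 0.05 and 0.08.

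**Figure D5:**
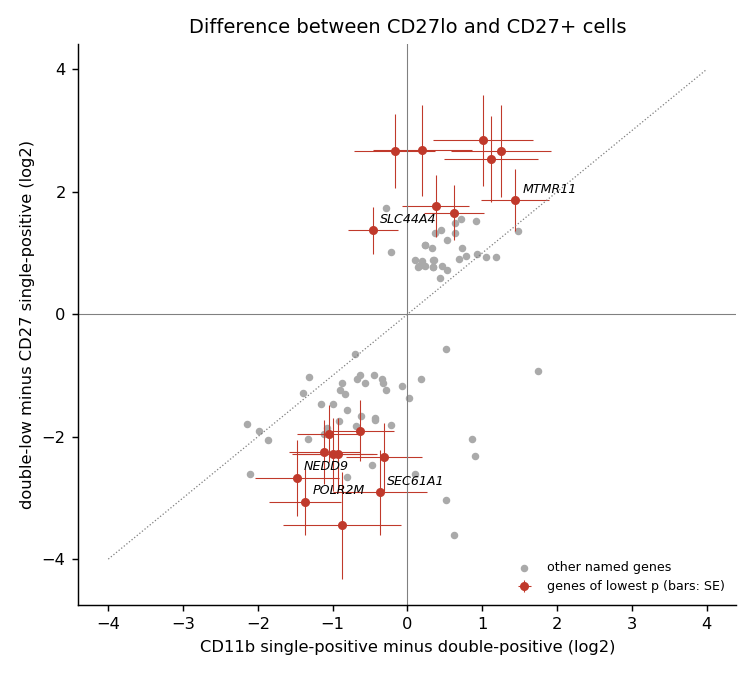
Difference (log2) of the named genes among CD11blo cells (double-low minus CD27 single-positive, vertical) and among CD11b+ cells (CD11b single-positive minus double-positive, horizontal), with SE bars for the genes of lowest p and a dotted line of equality. POLR2M (-3.06 and -1.37) and NEDD9 (-2.67 and -1.48) are negative in both, and SLC44A4 is positive (1.37) among CD11blo cells and negative (-0.46) among CD11b+ cells.

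An alternative fit that weights each array by its quality called genes where the unweighted fit called none. It gave double-low replicate 4 a weight of 0.537 and double-low replicate 2 a weight of 3.321, and 39 genes (0.32%) passed the adjusted p of 0.05 in limma, 21 lower and 18 higher in double-low cells. Of the 39 genes, 13 were among the 20 of lowest p described above, 37 had separate groups, and all had an unadjusted p under 0.05 in the unweighted fit. Both fits use the same arrays, so this overlap is no separate result. The adjusted p was 0.0433 for POLR2M and SEC61A1, and 0.0491 for NEDD9, TOP2B, DUSP5, ATP5F1A, IL4I1, SLC44A4 and SIGLEC9. CD27 had 0.0687. Over all probes the weighted fit called none, with 17838 at an unadjusted p under 0.05.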

How the data were processed

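Per the labels, each array holds amplified cDNA of 1 sorted sample, hybridised in 1 colour. Scanner output came from Agilent Feature Extraction 10.7.1.1, with Partek also listed, per the submitters' processing notes. Per the file headers, the processed signal is an intensity with background subtracted and detrended within its array, and spot and local background medians are unprocessed intensity. Values in the deposited matrix are log2 with the same quantiles on all 20 arrays, ranked within an array like the processed signal (Spearman at least 0.9999), and served as an alternative.

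Spots marked as outliers were left out and spots of 1 probe averaged. Of 58659 probes 20417 (34.8%) matched 12530 genes through the RefSeq gene table (T2T-MFA8v1.1), by transcript accession without version. Testing required a signal well above background on 4 or more of the 18 NK arrays, and each gene was represented by its brightest probe on average. Log2 processed signal minus the array's 75th percentile entered limma 3.58.1 (R 4.3.3, lmFit and eBayes with trend and robust) on the 18 NK arrays, with 1 mean per subset and no block, and Benjamini-Hochberg adjustment over all genes or probes at 0.05. The p-values measure the spread between these samples. Precision is limited by how few arrays there are. The script was tested on simulated data.

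The genes and the 38 lists were chosen with earlier results of these data known. The named genes are CD27, POLR2M and NEDD9, the sort markers, the 10 genes of lowest p in each direction, the 3 of lowest interaction p in each direction and the 2 of lowest p per list, 94 in all; other members were singled out after their values were seen. A few of these genes are left out of the text and plots here. Of 726 list genes 469 had a matched probe. Alternatives were quantile normalization, normexp background correction (offset 50, on spot medians, since spot means were not used here), the deposited matrix, blocks for slide, replicate number or origin, sex and age, array weights, only the 8 arrays, other filters, the mean over probes, each array left out and each slide alone. Replicate numbers were to pair the samples only if every same-numbered pair deviated from its group means with a correlation over 0.1, which number 3 did not reach, so the fit has no block.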

Additional observations from a re-analysis of the deposited data

Results flagged for a closer look

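In 10 of 196 sets of 4 arrays 1 array stood far from the other 3; chance alone flags about 1 in 20 sets. In double-low replicate 4 GMPS had a level of -1.15 (the other 3 double-low arrays were at 0.40 to 0.55), PMAIP1 of -4.44 (the others at 1.90 to 2.78) and BCL2A1 of -0.20 (the others at 0.76 to 0.90). ITGA5 in double-low replicate 3 was at 1.52, against 2.42 to 2.55 in the others. In CD27 single-positive replicate 4 RELA was at -0.88 (the others at 1.5 to 1.96), PRF1 at 0.87 (the others at 2.35 to 2.52) and E2F1 at 4.04 (the others at 4.27 to 4.31). In CD27 single-positive replicate 1 IL21R was at -5.07 and FLT3, a receptor of dendritic cell precursors, at -3.85, where the other 3 arrays were at -1.29 to -0.53 and at -2.38 to -2.25. ARPC1B in CD27 single-positive replicate 2 was at 2.01, against 3.34 to 3.43 in the others.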

How the results depend on the processing

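No gene passed under 23 of the 24 alternatives tried, and 39 passed with array weights. Of the 94 named genes, 17 passed with array weights and none under the other alternatives. The direction of BACH2 turned within the second slide, at -0.06 against 1.73. Every other named gene kept its sign under every alternative that tested it; the filter that asks for all 8 arrays above background tested 75 of them. Leaving out 1 array gave 0 genes each time, and no probe passed and no gene passed the interaction test under any alternative run. The number of genes at an unadjusted p under 0.05 moved more, against 1566: it was 4007 with array weights, 3394 with only the 8 arrays fitted, 2641 within the first slide, 562 within the second, and 629 with both replicate 4 arrays left out. With 1 array left out it ranged from 780 (without CD27 single-positive replicate 1) to 1839 (without CD27 single-positive replicate 3), with 973 without double-low replicate 4 and 979 without CD27 single-positive replicate 2. With a replicate block no gene passed (1722 at an unadjusted p under 0.05), nor in the fit of the 8 arrays with that block (3527), where same-numbered arrays deviated from their group means with correlations of 0.29, 0.269, 0.018 and 0.222 for numbers 1 to 4, and differently numbered ones with -0.208 to 0.11. Numbers 1, 2 and 4 thus correlated best with their own number, as a hint from the data that they may pair, while double-low replicate 3 correlated best with CD27 single-positive replicate 4, at 0.043. The block for origin, sex and age (1762), the replicate block in the 8-array fit and quantile normalization without double-low replicate 4 (1164) were chosen after seeing the data. The causes of these shifts were not tested. The dim arrays limit what can be said of genes near background.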

Other observations

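With array weights some further genes outside the lists passed the adjusted p of 0.05 in limma, and they are named here after their values were seen. CCL20, a chemokine that attracts CCR6-bearing lymphocytes, had the largest difference of the 39 genes, 3.98, in the direction of higher double-low levels. PAFAH1B1, a dynein regulator, was at -2.77, RRP12, a ribosome export factor, at -2.41, the kinase HIPK1 at -2.10 and BCL10, an adaptor of NF-kB signalling, at -2.05. Genes of the secretory pathway among the 39 were SEC61A1 at -2.82, DNAJC3 at -2.06, SPCS1 at -1.96 and TMED10 at -1.78. None of these passed in the unweighted fit.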
